A study of Mus musculus with 12 samples.

Results

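The Ikaros family comprises 5 genes, Ikzf1 (Ikaros), Ikzf2 (Helios), Ikzf3 (Aiolos), Ikzf4 (Eos) and Ikzf5 (Pegasus), which were taken by gene symbol from a table of 11581 genes measured by RNA sequencing in CD8 T cells. All 5 had a row. GENCODE M21 places Ikzf1 (ENSMUSG00000018654) and Ikzf3 (ENSMUSG00000018168) on chromosome 11, Ikzf2 (ENSMUSG00000025997) on chromosome 1, Ikzf4 (ENSMUSG00000002578) on chromosome 10 and Ikzf5 (ENSMUSG00000040167) on chromosome 7. The cells came from bone marrow chimeras in which 1 of the marrow donors carried either the scurfy mutation of Foxp3, which abolishes the function of that transcription factor, or the wild-type gene. In unstimulated scurfy cells Ikzf1, the most abundant member, fell to 68.1% of its wild-type level. This call held in 13 of 18 alternative settings. Ikzf2, Ikzf3, Ikzf4 and Ikzf5 did not pass the test, although Ikzf2 and Ikzf5 averaged 67.1% and 71.4% of wild type.

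The compared groups were 3 libraries of unstimulated OT-1 Foxp3Scurfy cells and 3 of unstimulated OT-1 Foxp3wt cells, OT-1 being a transgenic T cell receptor specific for the SIINFEKL peptide of ovalbumin. In both groups bone marrow of the OT-1 donor, CD45.1+/2+, was mixed with marrow of CD45.2+ donors and given to CD45.2+ C57BL/6 J mice, and purified CD8 T cells were taken 2 months later. The labels do not say whether OT-1 cells were separated from CD8 T cells of the other donor, how many mice stood behind a library, or whether libraries came from separate mice, so the p-values measure the spread between these libraries, which may be technical. Scurfy library 3 stood apart on the first principal component, which held 46.4% of the variance, at -31.4 against -9.10 and -12.0 for the other scurfy libraries and 12.6 to 24.4 in wild type. A further 6 samples, given peptide for 6 h, were not analysed here.

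Ikaros family proteins are zinc finger transcription factors of lymphocytes. Fingers near the amino terminus bind DNA and fingers at the carboxy terminus join family members into dimers, so that members can act together or interfere with each other. Ikaros and Aiolos recruit the chromatin-remodelling NuRD complex and repress or maintain genes during lymphocyte development, Helios and Eos are best known from regulatory T cells, where Eos acts as a co-repressor with Foxp3 in the mouse, and Pegasus is the most divergent member.

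The DNA-binding fingers show what the members share beyond their names. In the translated GENCODE M21 transcripts, a search for a pair of cysteines followed by a histidine and then a histidine or cysteine found 4 fingers in the amino-terminal part of Ikaros, Helios, Aiolos and Eos and 3 in that of Pegasus. Whole-protein identity over aligned residues was between 47.9% and 57.2% for the 6 pairs among the first 4 members and between 27.8% and 32% for the 4 pairs with Pegasus. The coding sequence of the second finger is shown for Ikzf1 to Ikzf4, with that of the first finger of Ikzf5, which among its amino-terminal fingers shares the most residues with it. The codons of the cysteine and histidine residues that bind zinc are in capitals.
Ikzf1: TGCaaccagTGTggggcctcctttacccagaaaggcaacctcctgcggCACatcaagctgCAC
Ikzf2: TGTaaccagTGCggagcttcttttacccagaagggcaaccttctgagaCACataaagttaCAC
Ikzf3: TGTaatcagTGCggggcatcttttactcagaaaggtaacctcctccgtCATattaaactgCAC
Ikzf4: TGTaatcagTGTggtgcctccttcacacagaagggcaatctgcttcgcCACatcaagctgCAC
Ikzf5: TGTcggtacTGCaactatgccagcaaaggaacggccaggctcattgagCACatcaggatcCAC

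All 21 residues of this finger were identical in Ikaros, Helios, Aiolos and Eos, although the coding sequences differed from that of Ikzf1 at 12 bases in Ikzf2, 12 in Ikzf3 and 10 in Ikzf4. The Ikzf5 finger shared 6 of the 21 residues and 29 of 63 bases. These 6 include the zinc-binding cysteine and histidine residues, which the search itself requires. The third finger of Ikaros shares more residues with this Ikzf5 finger than the second does, so the 6 residues are not its closest match. The remaining fingers of Ikaros were not compared with it. The lines above are gene sequences, whereas all values that follow are totals per gene and do not separate the splice forms of a member, some of which lack DNA-binding fingers.

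Ikzf1 encodes Ikaros, the founding member, needed for the development of lymphocytes. Its normalized counts, that is, read counts divided by a size factor of each library, were 1822, 1738 and 1464 in wild-type libraries 1 to 3 and 1193, 1053 and 1176 in scurfy libraries 1 to 3. Every scurfy library lay below every wild-type library. The means were 1141 ± 76.2 in scurfy and 1675 ± 187 in wild type (SD, n = 3 each). The log2 fold change was -0.55 (SE 0.12, limma adjusted p = 0.0198). Among the 5 members this was the 1 call at an adjusted p of 0.05. In the whole table limma called 4.47% of genes in either direction and 2.35% lower in scurfy. In the authors' deposited table, which called 8.9% of the genes given an adjusted p, Ikzf1 had a log2 fold change of -0.55 and an adjusted p of 0.00133, and the other members had adjusted p from 0.121 to 0.681. The limma call ended without scurfy library 2 (-0.49, adjusted p = 0.0813), without wild-type library 1 (-0.49, 0.0704) or without wild-type library 2 (-0.52, 0.0718), and it held without any of the other 3 libraries, scurfy library 3 included (-0.57, 0.0312). In bulk RNA, fewer cells expressing a gene and less RNA per cell cannot be told apart.

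**Figure D1:**
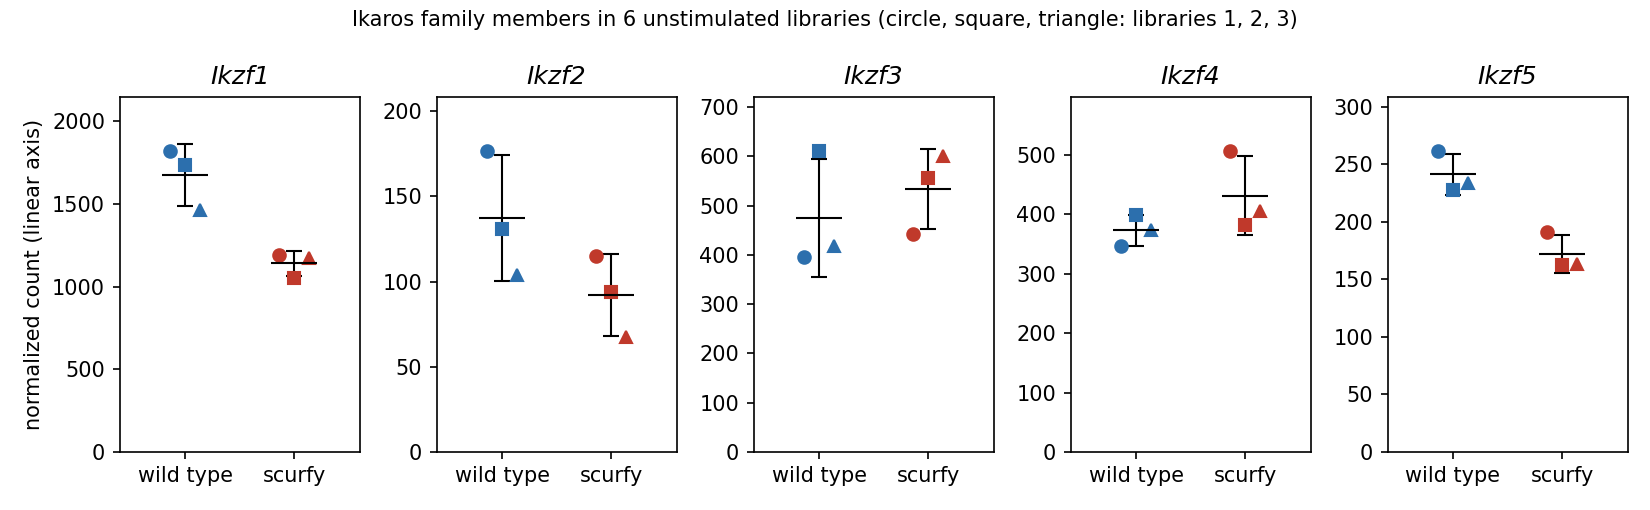
Normalized counts (vertical axes, linear and from 0, a separate scale for each gene) of the 5 members in the 3 wild-type and 3 scurfy libraries. Points are libraries, the long bar is the mean and the whiskers are ± 1 SD; for Ikzf1 and Ikzf5 all scurfy libraries lie below all wild-type libraries, and for Ikzf2, Ikzf3 and Ikzf4 the groups overlap.

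Ikzf5, which encodes Pegasus, was measured at 262, 228 and 234 normalized counts in wild-type libraries 1 to 3 and at 191, 162 and 163 in scurfy libraries 1 to 3. Here too no scurfy library reached the lowest wild-type library. The means were 172 ± 16.5 and 241 ± 18.2 (SD, n = 3 each), and the log2 fold change of -0.49 (SE 0.18) did not pass (limma adjusted p = 0.144). Groups that did not overlap were found in 2 of the 5 members, both lower in scurfy, against 27.1% of all genes in either direction and 13.7% lower in scurfy. The Ikzf5 value carries a particular doubt. Its exons overlap those of Pstk, a kinase gene of selenocysteine synthesis on the opposite strand, by 4652 of 5721 bases in GENCODE M21, and without strand information reads of the genes cannot be told apart. Pstk itself averaged 706 ± 76.4 in scurfy against 680 ± 103 in wild type (log2 fold change 0.06, limma adjusted p = 0.851), an estimate whose sign turned under 3 alternatives.

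Ikzf2, which encodes Helios, was the least abundant member. Wild-type libraries 1 to 3 held 177, 131 and 104 normalized counts and scurfy libraries 1 to 3 held 115, 94.0 and 67.4. The lowest wild-type library lay below the highest scurfy library, so the groups overlapped. The log2 fold change of -0.57 (SE 0.28, limma adjusted p = 0.258) was of about the size of that of Ikzf1, with a 95% interval from -1.17 to 0.03. These values rested on 57 to 271 reads per library, and in scurfy library 3 the 57 reads gave an exact Poisson 95% interval with a half-width of 26.9% of the value. Ikzf1 rested on 863 to 3595 reads, with half-widths of at most 6.73%. These intervals cover counting error only.

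Ikzf4 and Ikzf3 were not lower in scurfy cells. Ikzf4, which encodes Eos, was at 347, 399 and 374 normalized counts in wild-type libraries 1 to 3 and at 507, 382 and 405 in scurfy libraries 1 to 3. Scurfy library 1 was the highest of the 6, and scurfy library 2 fell within the wild-type range. The log2 fold change was 0.20 (SE 0.16, limma adjusted p = 0.495, 95% interval -0.13 to 0.53). Ikzf3, which encodes Aiolos, was at 395, 611 and 417 in wild-type libraries 1 to 3 and at 443, 555 and 601 in scurfy libraries 1 to 3. Its highest value was in wild-type library 2, which had the most reads over the genes of the table, so the groups overlapped. The log2 fold change was 0.18 (SE 0.18, limma adjusted p = 0.595, 95% interval -0.20 to 0.57). The intervals of Ikzf3 and Ikzf4 do not reach down to the value of Ikzf1.

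The members therefore had estimates of both signs, 3 negative and 2 positive, and their relative levels were compared within libraries, where no scaling between libraries enters. The log2 ratio of Ikzf1 to Ikzf4 was 2.39, 2.12 and 1.97 in wild-type libraries 1 to 3 and 1.23, 1.46 and 1.54 in scurfy libraries 1 to 3, a difference of -0.75. That of Ikzf1 to Ikzf3 was 2.21, 1.51 and 1.81 in wild type and 1.43, 0.92 and 0.97 in scurfy, a difference of -0.73. For both ratios the groups did not overlap. In contrast, the ratio of Ikzf1 to Ikzf5 differed by -0.06 and that of Ikzf1 to Ikzf2 by 0.03, with overlapping groups. Of the 10 possible pairs 4 did not overlap, the other two being Ikzf2 to Ikzf4 (-0.78) and Ikzf4 to Ikzf5 (0.69). Each of these 4 had a two-sided exact permutation p of 0.1, the smallest that 3 libraries against 3 allow, and 0.25 adjusted over the 10 pairs, so no pair can pass 0.05 by this test. The pairs share members and are not independent. How often ratios between other genes separate the groups was not tested. Whether 4 of 10 pairs is more than other genes would give is therefore not known. Single genes did not overlap in 27.1% of cases, in either direction.

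**Figure D2:**
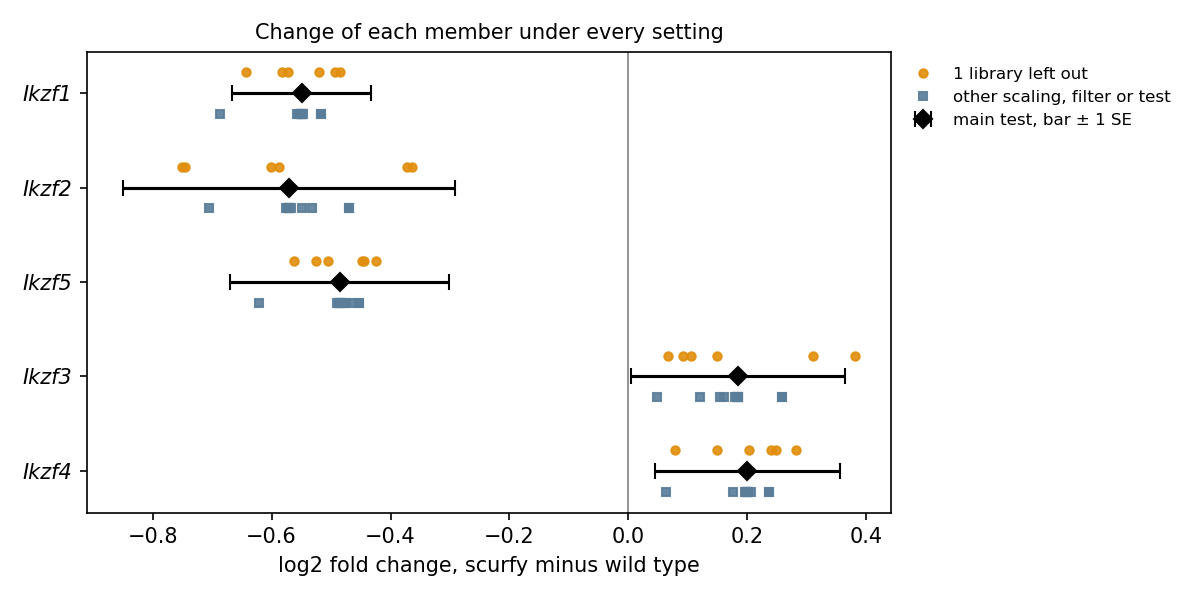
Log2 fold change of each member (horizontal axis, scurfy minus wild type) in the main limma test (diamonds, bars ± 1 SE), with 1 of the 6 libraries left out (circles) and under 12 other scalings, filters or tests (squares). Ikzf1, Ikzf2 and Ikzf5 lie below 0 and Ikzf3 and Ikzf4 above 0 under every one of the 18 alternatives.

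Levels of different genes were compared per kilobase of annotated exon (5.78 kb for Ikzf1, 11.6 for Ikzf2, 8.75 for Ikzf3, 6.00 for Ikzf4 and 5.72 for Ikzf5). In wild type Ikzf1 stood at 290 ± 32.4 normalized counts per kb, followed by Ikzf4 at 62.3 ± 4.32, Ikzf3 at 54.2 ± 13.6, Ikzf5 at 42.2 ± 3.18 and Ikzf2 at 11.8 ± 3.17 (SD, n = 3). In scurfy the order was the same, with 197 ± 13.2, 72.0 ± 11.1, 60.9 ± 9.25, 30.1 ± 2.89 and 7.93 ± 2.06. Ikzf1 exceeded the next member 4.65-fold in wild type and 2.74-fold in scurfy, without overlap between the libraries of the genes. Ikzf4 and Ikzf3 overlapped in both groups and did not differ beyond their spread, and Ikzf3 and Ikzf5 overlapped in wild type but not in scurfy. Ikzf2 lay below Ikzf5 without overlap in both groups. The Ikzf5 level is uncertain, because Pstk shares 4652 of its 5721 exonic bases and the use of strand in counting is not stated. The place of Ikzf5, and the distance from Ikzf1 to the next member, carry the same doubt. Because reverse transcription was primed at the poly(A) tail, reads may not scale with length. Without division by length Ikzf3 came before Ikzf4 and the other places were the same.

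Ikzf1 supplied most of the summed family level per kb. Its share was 65.8%, 61.6% and 61.3% in wild-type libraries 1 to 3 and 53.6%, 52.7% and 54.4% in scurfy libraries 1 to 3. All scurfy shares lay below all wild-type shares, by 9.32 percentage points on average (two-sided exact permutation p = 0.1, the smallest possible; 0.25 adjusted over the 5 members). The share of Ikzf4 was 13.6% ± 1.52 in wild type and 19.5% ± 2.16 in scurfy, also without overlap (exact p = 0.1). That of Ikzf3 was 11.7% ± 2.46 and 16.6% ± 3.00 (exact p = 0.2), and the share of Ikzf2 was 2.55% ± 0.55 and 2.15% ± 0.54 (exact p = 0.6). Ikzf5 held 9.20% ± 0.93 in wild type and 8.17% ± 0.53 in scurfy (exact p = 0.3). Shares are parts of a whole, so a lower Ikzf1 share raises the sum of the others without any change in their own levels. The summed level itself was 368 ± 20.2 per kb in scurfy, 80.0% of the 460 ± 40.9 in wild type (exact p = 0.1). This sum holds the Ikzf5 level, which is uncertain because of Pstk, and all shares depend on it.

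**Figure D3:**
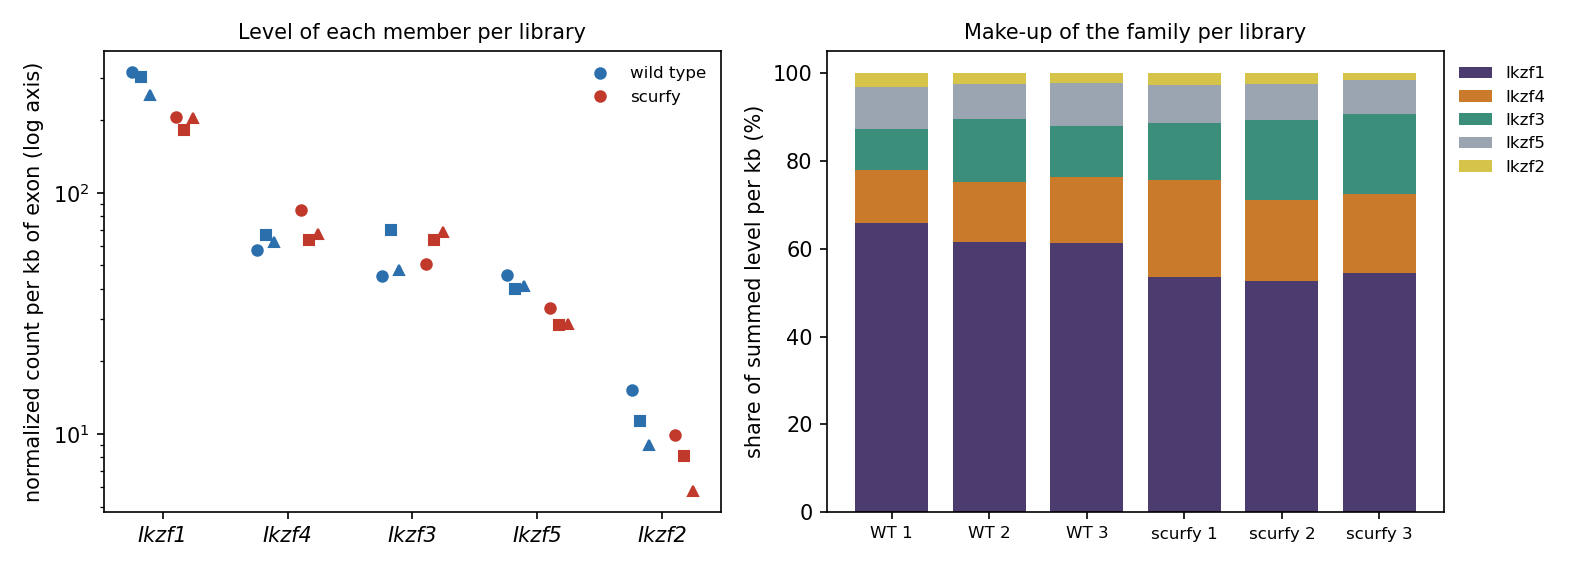
Left: normalized count per kb of exon (log axis) of each member in each library, in order of level. Right: share of each member in the summed level per kb (%), 1 bar per library; the Ikzf1 share runs from 61.3% to 65.8% in wild type (WT) and from 52.7% to 54.4% in scurfy.

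Set among 24 other transcription factors of lymphoid cells, Ikzf1 held place 8 of 29 per kb in wild type and place 13 in scurfy. Foxp1, Satb1, Tcf3, Foxo1 and Runx3, at places 9 to 13 in wild type with 287 to 214 normalized counts per kb, stood above it in scurfy cells. The wild-type levels of Ikzf1 and Foxp1 lay within the spread between libraries. Satb1 (250 ± 18.5) and Tcf3 (248 ± 22.6) were also close in wild type, where the lowest Ikzf1 library held 253. In scurfy Tcf3 stood at 204 and Ikzf1 at 197 ± 13.2. These places are therefore not all separated beyond the spread. This shift depended on the division by length: by undivided normalized counts, looked at after seeing the data, Ikzf1 held place 12 of 29 in both groups and none of these 5 genes crossed it. Per kb, the places of the other members were 17 and 15 for Ikzf4, 19 and 16 for Ikzf3, 21 in both groups for Ikzf5 and 26 in both groups for Ikzf2. Over all genes of the table the mean level per kb of Ikzf1 was at percentile 82.2, those of Ikzf4, Ikzf3 and Ikzf5 at 53.3, 49.1 and 37.0, and that of Ikzf2 at 13.1. Undivided, these percentiles were 89.3 for Ikzf1, 68.6 for Ikzf3, 62.8 for Ikzf4, 45.5 for Ikzf5 and 33.8 for Ikzf2. The places and percentiles of Ikzf5 are uncertain because of its overlap with Pstk.

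In this list of lymphoid factors 3 of 24 genes fell, against 2.35% of all genes in limma. None rose and 21 did not pass, and 21 of the 24 estimates were negative. The median log2 fold change was -0.30, against 0.01 over all genes. Ets1, an Ets factor of T cells, averaged 10289 ± 530 normalized counts in wild type and 6469 ± 1235 in scurfy, lower by a log2 change of -0.69 (limma adjusted p = 0.0139). Another Ets factor, Fli1, averaged 265 ± 79.9 and 109 ± 36.2 (-1.28, adjusted p = 0.0190), and Tcf12, an E protein, 512 ± 85.3 and 336 ± 22 (-0.60, adjusted p = 0.0478). With 1 library left out 0 to 2 of the 24 fell, none without wild-type library 3 and 1 without scurfy library 3, which held the lowest Ets1 and Fli1 values. Without scurfy library 3 the list kept 21 negative estimates and a median of -0.24. The Ets1 call ended without wild-type library 3 (adjusted p = 0.0548), the Fli1 call without any of 4 libraries (up to 0.0727) and the Tcf12 call without any of 5 (up to 0.169), with the length trend removed (-0.47, 0.12) and with a replicate block (0.0753). In DESeq2 on recovered reads 8 fell, and on library size alone 9.

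The enzymes that set the phosphorylation of Ikaros were the other list with calls. Casein kinase 2 phosphorylates Ikaros and lowers its DNA binding, and protein phosphatase 1 reverses this. Of 6 subunit genes 1 rose, 1 fell and 4 did not pass, where limma called 4.47% of all genes in either direction. Ppp1cb, a catalytic subunit of the phosphatase, was at 302, 332 and 314 normalized counts in wild-type libraries 1 to 3 and at 213, 190 and 132 in scurfy libraries 1 to 3 (log2 fold change -0.85, SE 0.20, limma adjusted p = 0.0286). Ppp1ca, another catalytic subunit and the more abundant one, was at 3670, 3323 and 3564 in wild type and at 4524, 4723 and 4689 in scurfy (0.40, SE 0.10, limma adjusted p = 0.0308). In both genes the groups did not overlap, in opposite directions. Groups did not overlap in 27.1% of all genes. The Ppp1ca call ended whichever library was left out (adjusted p from 0.0550 to 0.114) and on library size alone (0.26, adjusted p = 0.112), and the Ppp1cb call ended without any of 5 libraries (up to 0.101). With the trend on gene length removed both calls ended (adjusted p = 0.0619 and 0.0637), and that of Ppp1ca also with a replicate block (0.0679).

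Genes of co-repressors and remodellers that work with Ikaros proteins did not pass in limma. All 14 genes of the NuRD complex had a row and none was called by limma, with 9 negative estimates and a median of -0.14. Gatad2b, a scaffold subunit, was closest at -0.43 (limma adjusted p = 0.0520). It passed in edgeR (0.0462), DESeq2 (0.0203) and voom (0.0468), and in limma on library size alone (0.0165) and under 3 further settings (0.0406 to 0.04996). In the remaining 11 of the 18 alternatives Gatad2b did not pass. These were the length trend removed (-0.33, 0.139), a replicate block (0.0827), both together (0.195), plain moderation (0.196) and each library left out in turn (0.0770 to 0.156). Chd4, the remodelling ATPase, named here for its known partnership with Ikaros, averaged 5488 ± 372 in scurfy against 6473 ± 390 in wild type (-0.24, limma adjusted p = 0.2, and 0.0400 on library size alone). Chd4 did not pass in the other 17 of the 18 alternatives. None of the 8 genes of the CtBP and Sin3 co-repressors passed (Sin3a closest to passing at -0.28), nor any of the 11 of the SWI/SNF complex (Smarcd1 closest at -0.40). The 5 genes of the cereblon ubiquitin ligase, through which thalidomide analogues degrade Ikaros and Aiolos in human cells, did not pass either, with Cul4b closest at -0.58 and the substrate receptor Crbn, also named for its role, at -0.09, a sign that turned without wild-type library 2.

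Partners of Foxp3 and Eos and reported targets of the family gave no call in limma. Of 14 planned Foxp3 and Eos partner genes 12 had a row, Foxp3 itself not among them, and the acetyltransferase Ep300 was closest at -0.50 (limma adjusted p = 0.12, and 0.0416 without wild-type library 1). Ep300 did not pass in the other 17 of the 18 alternatives. Of 24 reported targets of Ikaros, Aiolos or Helios 18 had a row and the median was 0.00, with 9 negative estimates. Bcl6, a transcriptional repressor, was closest at -1.02, from 75.4 ± 18.8 to 36.1 ± 3.55 normalized counts (limma adjusted p = 0.0889, 0.0484 in DESeq2 and 0.0478 on library size alone). Bcl6 did not pass in the other 16 alternatives, among them edgeR (0.0784), voom (0.0977) and each library left out in turn (0.0929 to 0.259). Across the 8 lists limma called 5 of 90 distinct genes with a row. DESeq2 on recovered reads called 12 of them and edgeR 6. Over the whole table limma called 4.47% of genes, DESeq2 891 of 10008 and edgeR 561 of 11581.

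**Figure D4:**
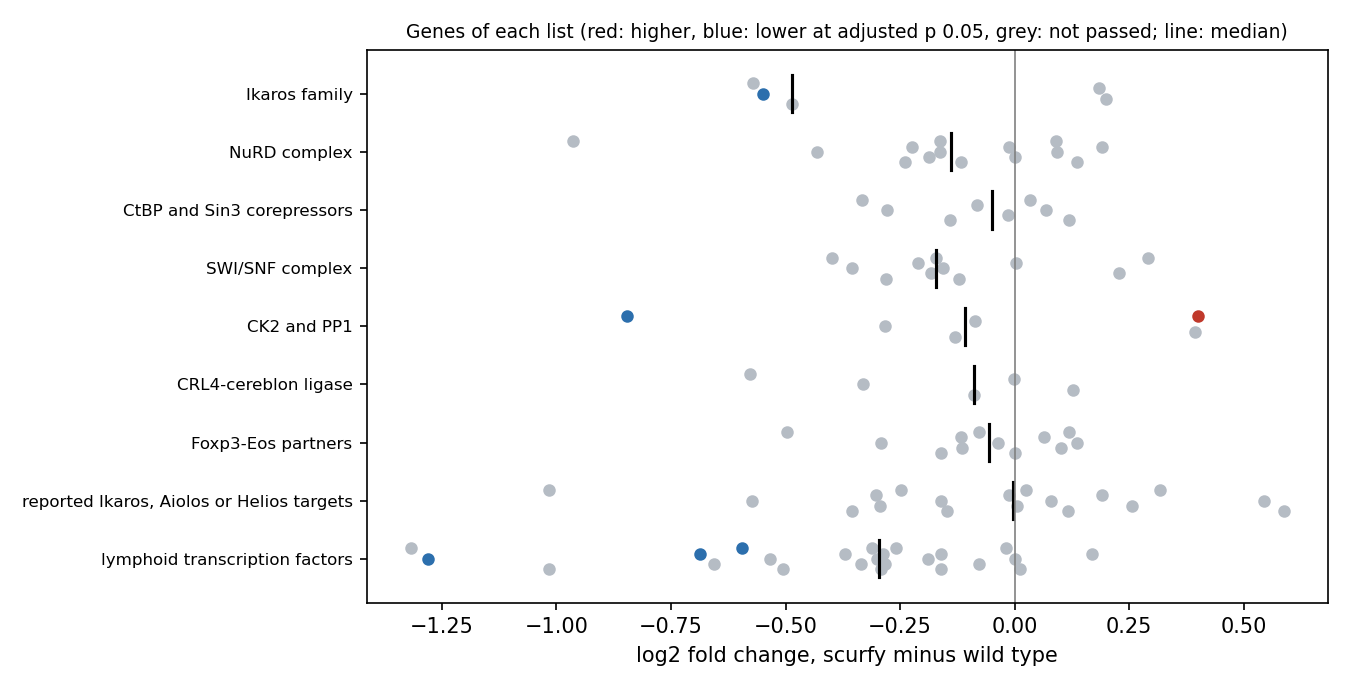
Log2 fold change (horizontal axis, scurfy minus wild type) of the genes of each list, with the 5 members in the top line. Each point is a gene, coloured where limma called it higher (red) or lower (blue), and the upright line is the median, which is -0.30 for the lymphoid transcription factors and 0.01 over all genes of the table.

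Genes whose profile over the 6 libraries was most like that of a member were found by the root mean square difference of log2 values centred on each gene's mean, among 9028 named genes with a mean of at least 50. Nearest to Ikzf1 were Hook3 (0.05), Fads1 (0.06) and Xpr1 (0.06). Hook3 encodes an adaptor of dynein. Nearest to Ikzf5 were Atf7ip (0.05), Fam175a (0.06) and Heca (0.07). Atf7ip is a cofactor of histone methylation. Arl10, Carf and Prkd3 were nearest to Ikzf2 (0.09 to 0.11), Rqcd1, Usp47 and AW146154 to Ikzf3 (0.07 to 0.09) and Pex26, Actr1b and Fbxl8 to Ikzf4 (0.04 to 0.07). The choice by profile fixes the direction and size of the difference between groups in these genes, so no test of it is given.

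Promoter sequences of RefSeq (build GRCm38.p6, 250 bases before to 50 after a start) were looked up for all 5 members. None was found for Ikzf2, Ikzf3 or Ikzf4. Sequences were matched for Ikzf1, with a pair of starts, and for Ikzf5. They are shown because Ikaros proteins bind sites with the core GGGAA, here in capitals on either strand (TTCCC on the other).
Ikzf1, chr11:11689927-11690226, plus strand: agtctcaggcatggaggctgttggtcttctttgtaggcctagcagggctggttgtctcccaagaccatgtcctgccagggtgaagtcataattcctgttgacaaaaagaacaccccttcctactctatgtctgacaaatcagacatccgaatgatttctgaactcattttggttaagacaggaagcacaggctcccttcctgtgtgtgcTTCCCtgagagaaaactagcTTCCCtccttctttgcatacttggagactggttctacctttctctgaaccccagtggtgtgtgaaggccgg
Ikzf5, chr7:131410429-131410728, minus strand: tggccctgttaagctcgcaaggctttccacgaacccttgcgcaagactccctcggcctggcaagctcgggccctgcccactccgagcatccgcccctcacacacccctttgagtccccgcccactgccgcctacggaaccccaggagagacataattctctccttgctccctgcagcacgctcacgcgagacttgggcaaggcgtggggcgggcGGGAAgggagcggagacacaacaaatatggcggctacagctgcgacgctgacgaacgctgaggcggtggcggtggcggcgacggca

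The printed Ikzf1 promoter held 2 matches and the Ikzf5 promoter 1, while the other Ikzf1 promoter, with a GC content of 81.3%, held none. Of 32851 promoters of the same length 62.7% hold the core. The forkhead core TGTTTA, or TAAACA on the other strand, was in none of the 3 sequences and is in 13.4% of all. A match is no evidence of binding, and its absence concerns this window only.

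The cells were checked against their markers. All 5 CD8 T cell markers had a row, and their summed normalized counts ran from 46614 to 52797 in scurfy and from 42856 to 43155 in wild type. Cd3d, a chain of the T cell receptor complex, was the 1 of them that rose (log2 fold change 0.76, limma adjusted p = 0.00551), and Cd8a averaged 7840 ± 577 in scurfy and 7231 ± 442 in wild type. Of 13 B cell markers 7 had a row, with Cd79a, Pax5 and Ebf1 among those that did not. The sum of the 7 was 9895 to 11352 in scurfy and 10971 to 11753 in wild type, most of it Ighm. Their estimates were all negative, and H2-Aa, of MHC class II, fell: it averaged 71.7 ± 13.6 in wild type and 6.82 ± 8.08 in scurfy (limma adjusted p = 0.0164, a call that ended without wild-type library 2 or 3). Ikaros and Aiolos are also made by B cells, and the part of such cells in the Ikzf1 result was not tested. Of the CD4 and regulatory T cell markers 3 of 6 had a row, summing to 1459 to 1825 in scurfy and 1179 to 1404 in wild type, with Cd4 and Foxp3 not among them. Most of that sum was Tnfrsf18 (1505 ± 166 in scurfy and 1181 ± 100 in wild type). Il2ra averaged 55.7 and 63.5 and Ctla4 69.2 and 56.9, both with overlapping groups. None of the 3 passed in limma. No natural killer marker of 6 had a row. Of 8 myeloid markers 2 had a row (1463 to 1579 in scurfy and 850 to 1172 in wild type; Cst3 rose by 0.59 on the log2 scale), and of 5 erythroid markers 1 had a row (Car2, 101 to 156 in scurfy and 232 to 315 in wild type, which fell by 1.12). The Cst3 call ended without scurfy library 2 or 3 or wild-type library 2, with the length trend removed (0.42, adjusted p = 0.101) and on library size alone (0.45, 0.0529), and the Car2 call without wild-type library 3. Their part in the results was not tested.

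Summed over the 11581 genes of the table, recovered reads were 10091477, 10189535 and 10498525 in scurfy and 8852518, 23149523 and 12841455 in wild type. Reads outside these genes are not known. Limma called 246 genes higher and 272 lower, but 169 higher and 761 lower on library size alone, a scaling that moved the all-gene median by -0.14 on the log2 scale. Relative to the median under that scaling Ikzf1 was at -0.56, Ikzf2 at -0.58, Ikzf5 at -0.49, Ikzf3 at 0.17 and Ikzf4 at 0.19. With the trend of fold change on gene length removed, Ikzf1 was at -0.52 (adjusted p = 0.0314).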

How the data were processed

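The submitters' processing notes list Trim Galore 0.4.4, STAR 2.6, featureCounts, edgeR, DESeq2 and the build NCBIM37, without saying what each did. Whether counting used strand is not stated there. The authors deposited a signal per gene and library, whose values behave as reads divided by the size factor of a library. Per the file headers the table also holds the authors' log2 fold change and its error, a test score, a raw p-value and an adjusted one. For the 5 members the deposited log2 fold changes and adjusted p match those of DESeq2 on recovered reads, and both called 891 of 10008 genes. Both deposited tables hold the same values of the 6 unstimulated libraries. The lowest gene mean in it is 7.10, so low genes were left out, and nothing is concluded from a missing row. Within 0.01 read, 100% of nonzero values were whole multiples of 1 read in every library, which gave recovered reads. In wild-type library 2 the lowest value was 2 reads.

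Differences were tested over all 11581 genes on log2(value + 1) with limma 3.58.1 (R 4.3.3), trended and robust, with Benjamini-Hochberg adjustment at 0.05. This scale understates changes of low genes. Exact permutation tests were used for ratios and shares. edgeR 4.0.16, DESeq2 1.42.0 and voom on recovered reads were alternatives. The script was tested on simulated data. Lengths and overlaps come from GENCODE M21 (11571 IDs matched, on another build, so gene positions are not given). Named genes are the 5 members, up to 4 called genes per list with the smallest p or else the 1 nearest, the 3 nearest profiles of each member, and marker genes. Members and lists were chosen with earlier results of these data known. Ratios between members and places without division by length were added after seeing the data. No libraries agreed within sampling noise.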

Additional observations from a re-analysis of the deposited data

How the results depend on the processing

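Every member kept its sign under all 18 alternatives run, from -0.69 to -0.49 for Ikzf1, -0.75 to -0.36 for Ikzf2, -0.62 to -0.42 for Ikzf5, 0.05 to 0.38 for Ikzf3 and 0.06 to 0.28 for Ikzf4. The Ikzf1 call held in 13 of the 18, among them edgeR, DESeq2 and voom, with adjusted p from 0.00133 to 0.163 over all 18. It ended with plain moderation in limma, without trend and robust fitting (-0.55, adjusted p = 0.163), with a replicate block and the length trend removed together (-0.52, 0.0556), and without any 1 of 3 libraries (-0.64 to -0.49 over the 6 left out in turn). No other member passed under any alternative. The DESeq2 alternative gave the authors' deposited log2 fold changes and adjusted p again for every member, so it is no separate result. The difference in the Ikzf1 share ran from -10.1 to -7.87 percentage points with 1 library left out. The order by level changed in 4 of 10 places without division by length, and in 0 to 2 with 1 library left out, Ikzf3 passing Ikzf4 in scurfy without scurfy library 1.

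Genes called in the whole table, 518, were 930 on library size only, 891 with DESeq2, 306 with the length trend removed, 141 with that and the replicate block, and 113 to 403 with 1 library left out. With plain moderation 0 were called, while 2106 had an unadjusted p under 0.05 and edgeR called 561. Called genes of the lists, 5, were 15 on library size only, 12 with DESeq2, 2 with the length trend removed, 3 with the replicate block, 1 with both, 0 with plain moderation and 0 to 3 with 1 library left out. Pstk turned negative on library size only (-0.076), where Usp47 (-0.0074) and Cd8a (-0.021) did too. With 1 library left out Pstk ran from -0.070 to 0.14, negative without scurfy library 2 or wild-type library 1, and Crbn from -0.21 to 0.0069, positive without wild-type library 2. The cause was not tested.

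No sign was seen that the replicate numbers pair the libraries. Deviations from group means correlated at -0.03, -0.07 and -0.15 for equal numbers over 9188 genes, and no scurfy library correlated best with its own number. Deviations from the mean of so few libraries depend on each other, so this check cannot exclude pairing. The replicate block gave 372 calls and kept that of Ikzf1 (adjusted p = 0.0286). Ikzf2 had the fewest reads of the members, 57 to 271 per library, and the part of depth in its spread was not tested.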
